A study of Mus musculus with 8 samples.

Results

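Fibroblast-like cells of the mouse tongue were taken from 8 single-cell RNA libraries of tongue epithelium. They were cells that held collagen transcripts, few keratin transcripts and none of the leukocyte gene Ptprc. A cell counted as a member when it passed the study's limits (1000 to 5500 genes, no more than 30000 UMIs, mitochondrial genes at 7% of UMIs or below), when Krt5, Krt14, Krt15, Krt13 and Krt6a together made up less than 0.5% of its UMIs, when Col1a1, Col1a2 and Col3a1 together gave at least 10 UMIs, and when it had no Ptprc UMI. A UMI is a tag that marks 1 captured transcript molecule. This rule kept 99 cells of the 25199 within the limits and of the 42550 deposited. The members were thus chosen by the measured values of these 9 genes, whose levels are given as description only, as is every contrast of the members with other cells.

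The mice carried the Krt14-CreERT and LSL-rtTA alleles in every group, with an H2B-GFP reporter according to the study's methods. N had no oncogenic transgene, E carried tetON_E6-E7 (the E6 and E7 oncogenes of human papillomavirus 16), Y carried tetON_YAP1S127A (a constitutively active YAP1), and EY carried both. Adult littermates received tamoxifen in the tongue and doxycycline in the diet, and cells were taken 15 days after induction, with 2 libraries a group from different mice. Cre was driven by the Krt14 promoter, so the transgenes were directed to basal epithelial cells and not to fibroblasts. The YAP1S127A allele sits at the Col1a1 locus, a gene of the rule. Epithelium had been peeled from the muscle by enzymes before sorting for viable cells, and the fibroblast-like cells are those that came with it. The title of N2 names 2 animals, and nothing else says whether it was a pool.

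Fibroblasts make and maintain the extracellular matrix of connective tissue. They secrete fibrillar collagens, the proteoglycans that order the fibrils, and the enzymes that crosslink or cut them. In the tongue they lie in the lamina propria under the epithelium and among muscle and vessels, where they also release chemokines, complement proteins and growth factors. Like most cells they answer interferons by raising antigen presentation and antiviral genes.

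The members were few and unevenly spread. N1 held 27, N2 15, E1 18, E2 2, Y1 2, Y2 26, EY1 2 and EY2 7. Their UMIs summed to 19208 in Y1 up to 377856 in Y2, and a gene at 0 in all 9 EY cells could still lie at up to 32.5 CPM (counts per 1000000 UMIs), the level of 3 counts in the 92346 UMIs of that group. The median member had 13756 UMIs and 3600 genes, against 15268 UMIs in epithelial cells and 6968 in immune cells. Y2 was the sole library with the X-inactivation transcript Xist in its members (521 CPM, 0 in the others) and the sole one without the Y-linked Ddx3y (52.1 to 137 CPM elsewhere), so sex and library cannot be told apart. No barcode was shared by members of different libraries, and 82 of 25117 barcodes of cells within the limits occurred in more than 1 library.

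Few cells lay near the threshold. The members nearest to it had 10, 25 and 31 collagen UMIs, all in EY2, followed by 33 in N1. The nearest cells outside had 6 and 4 collagen UMIs in Y1, with 89 and 86 Dcn UMIs, and 4 each in N1 and E2. The median member had 322 collagen UMIs. The limits on genes and UMIs weighed more: they removed 27 further cells that met the rest of the rule, 19 of them in N2 and 6 in E2. A further 3 collagen-rich cells were set aside for a Ptprc UMI and 6 for keratins. Doublets were not called here or, by the study's methods, by the authors.

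The cells carried the transcripts of fibroblasts beyond the genes of the rule. Decorin (Dcn), a proteoglycan that binds collagen fibrils, was found in 98 of the 99 cells at 8995 CPM pooled. Lumican (Lum), a related proteoglycan, was found in 95 cells and Pdgfra, the platelet-derived growth factor receptor that marks connective tissue fibroblasts, in 88. Each of the 10 fibroblast markers outside the rule was found in at least 10 cells, and 98 cells held 3 or more of them. Endothelial Cdh5, Emcn, Cldn5 and Egfl7 were at 0 in all members. Of 7 markers of pericytes or smooth muscle, Rgs5 was at 0, while Abcc9 was found in 38 cells, Kcnj8 in 21 and Cspg4 in 14. These 7 summed to 0 to 530 CPM by library, with the highest in E2, and 24 members held 2 or more of them. Markers of muscle were at 0 apart from Tnnt3 (5 cells), those of melanocytes apart from Mlana (3 cells), and Sox10 of Schwann cells had UMIs in 1 cell. Leukocyte and epithelial transcripts were present too: Cd74 was found in 56 cells, S100a8 in 17, Sfn in 37 and Perp in 25, whereas Tyrobp was found in 3, and Epcam and Cdh1 in 1 each. Of the 99 members, 12 held 2 or more immune markers and 13 held 2 or more epithelial ones. Immune markers other than Ptprc summed to 52.1 to 1136 CPM by library, epithelial ones to 42.3 to 136, and erythroid ones to 0 to 10776, with the highest in E1. Leaving out the members with a UMI of Epcam, Cdh1, Tyrobp, Cd3e, Pecam1 or Cdh5 kept 91 cells. UMIs of Cd74, S100a8, Sfn, Perp or keratins did not exclude a cell, so these 91 are not free of such transcripts. The numbers of calls and the interferon count below are also given for these 91 cells.

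These 0.393% of the cells held most of the transcripts of many matrix genes in the whole series. They carried 97.1% of all UMIs of Sfrp4, a secreted Wnt antagonist, 96.2% of Mfap5, a microfibril protein, 95.5% of Aspn and 93.8% of Lum. They likewise held 95% of the UMIs of the matrix-degrading enzyme Mmp3, 94.6% of the crosslinking enzyme Loxl1 and 91.7% of the chemokine Cxcl12. Dcn was different, since epithelial cells had it at 743 CPM and 48.7% of them held a UMI of it, against 6.43% of immune cells. The epithelial level of Dcn was 1099 and 1223 CPM in N, 970.0 and 720.2 in E, 805 and 336 in Y, and 252 and 27 in EY. It was thus above 700 CPM in the N, E and Y1 libraries and 27.0 in EY2. Epithelial cells here are those with keratins at 0.5% of UMIs or more and no Ptprc UMI, and immune cells those with a Ptprc UMI and keratins below that.

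The matrix program was led by type I and type III collagen, with Col3a1 at 13999, Col1a2 at 9211 and Col1a1 at 7116 CPM pooled over members. These levels count molecules and are not divided by length, which 3' tags do not need. Among the fibril collagens and their partners, 10 of 16 genes were at 100 CPM or more and over 5 times the level of both epithelial and immune cells, and among proteoglycans and glycoproteins 27 of 32. Sparc, a collagen-binding glycoprotein, stood at 8928 CPM, fibronectin (Fn1) at 2636 and Fbn1, the fibrillin of elastic fibres, at 1619. The complement genes C3 (3780 CPM) and Serping1 (2169 CPM) were as abundant as matrix genes. Of the 20 proliferation genes none reached 100 CPM, and Mki67 had UMIs in 3 cells. Yap1 was at 34.2 and 23.4 CPM in N, 12.4 and 0 in E, 104 and 13.2 in Y, and 0 and 34.1 in EY. Its level in Y and EY members lay within or below the range of N members apart from Y1, where 1 UMI is worth 52.1 CPM. Epithelial cells had Yap1 at 32.8 to 47.8 CPM in libraries without the YAP transgene and 166 to 452 in those with it.

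The share of fibroblast-like cells ranged from 0.0370% to 1.14% of the cells within the limits. It was 0.637% in N1 and 0.811% in N2, 0.363% in E1 and 0.132% in E2, 0.0370% in Y1 and 1.14% in Y2, and 0.110% in EY1 and 0.225% in EY2. The exact 95% intervals of Y1 (0.00448% to 0.134%) and Y2 (0.744% to 1.66%), 2 libraries of the same genotype, did not overlap; such intervals cover counting error only. Libraries with E6-E7 averaged 0.207% ± 0.115 (SD, n = 4) and those without 0.655% ± 0.461 (SD, n = 4), an exact two-sided permutation p of 0.143 over 70 labellings (adjusted over the 2 tests, 0.286). Libraries with YAP1S127A averaged 0.377% ± 0.512 and those without 0.485% ± 0.299 (SD, n = 4 each; exact permutation p = 0.743). Neither difference passed the test. The difference with E6-E7 was -0.448 percentage points, and it ran from -0.654 without Y1 (exact permutation p = 0.0286, adjusted 0.0571) to -0.288 without Y2. How deeply the peel reached into connective tissue was not measured, and a share also moves with the other cells of its library. With no upper limits on genes and UMIs, N2 had the highest share at 1.51% and Y2 fell to 0.892%.

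**Figure D1:**
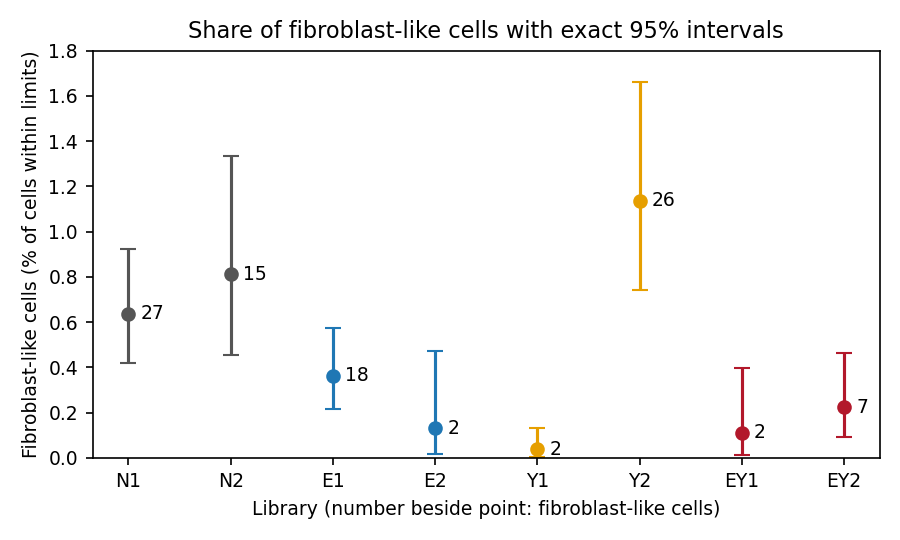
Share of fibroblast-like cells in each library as a percent of cells within the study's limits, with exact 95% intervals and the number of cells beside each point. Y2 has the highest share at 1.14% and Y1, of the same genotype, the lowest at 0.0370%, under the study's limits; with no upper limits N2 is highest at 1.51%.

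The members fell into 3 clusters when grouped without the genes of the rule, and these are given as description. Cluster 1 (39 cells, 6 libraries) was led by the haemoglobin gene Hbb-bs, at 2779 CPM against 88.4 in the other members and found in 12 of the 39 cells. Next came tenascin C (Tnc), smooth muscle actin (Acta2) and Col12a1, genes known from contractile and matrix-remodelling fibroblasts. Acta2 stood at 504 CPM there against 13.3 and 9.28 in clusters 2 and 3. Cluster 2 (36 cells, all 8 libraries) was led by the B-cell chemokine Cxcl13, Apoe, Cxcl14 and the potassium channel subunits Kcnj8 and Abcc9, with Cxcl12 at 1655 CPM against 556 and 237. Kcnj8 and Abcc9 are also pericyte genes. Rgs5 was at 0 there and Pdgfra at 342 CPM. Cluster 3 (24 cells, 5 libraries) was led by the keratin gene Krt25, at 204 CPM against 0 and found in 9 of the 24 cells. Next came Dpp4, Sbsn and Igfbp5, with Pi16 at 2628 CPM against 197 and 823. Dpp4 and Pi16 are known markers of fibroblasts around vessels that act as a reserve for other fibroblasts. All 9 EY cells lay in clusters 1 (4 cells) and 2 (5 cells), and N2 was the library with most of its cells in cluster 3 (8 of 15). Cluster sizes were not tested between groups, since genes that lead the clusters also differed between libraries.

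**Figure D2:**
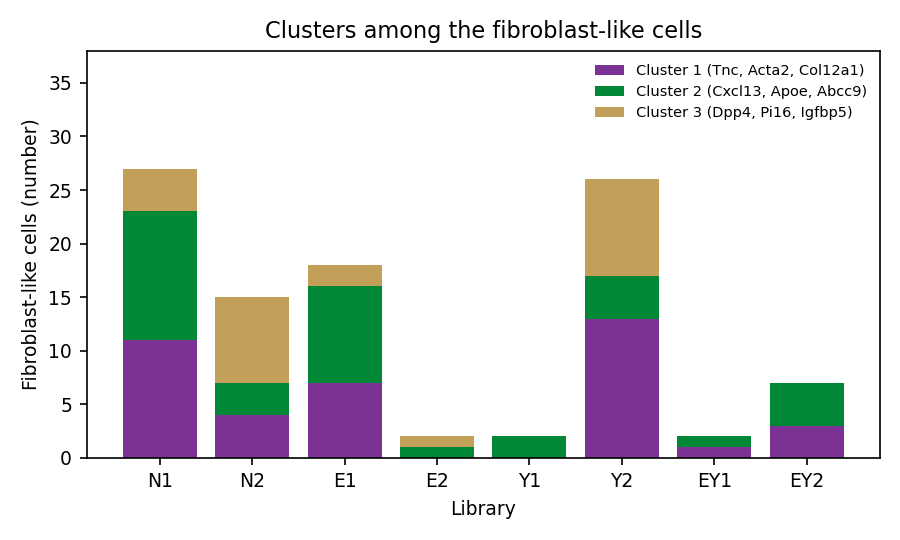
Number of fibroblast-like cells of each library in each of the 3 clusters. Cluster 3 (tan) takes 24 cells and holds none of the 9 EY cells; cluster 2 (green) is found in all 8 libraries.

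To compare genotypes, the UMIs of the members were summed in each library and fitted with edgeR's quasi-likelihood test. The planned fits took libraries with at least 20 members, and only N1 and Y2 had that many, so none of the planned fits could be made. A fit over all 8 libraries was added after the data were seen. It tested 3120 genes that passed edgeR's filter on low counts, which asks for a minimum level in some libraries only. It counted as called those with a Benjamini-Hochberg adjusted p under 0.05. It called 8 genes between EY and N (0.256% of those tested; 6 higher, 0.192%, and 2 lower, 0.0641%), 4 for E6-E7, all higher (0.128%), 0 for YAP1S127A and 0 for the interaction. At an unadjusted p under 0.05 the counts were 296, 140, 148 and 182, and DESeq2 called 5, 5, 1 and 1. The balance of directions between EY and N turned with the method: DESeq2 called 1 higher and 4 lower, and the fit on libraries with at least 5 members 59 higher and 128 lower. These calls were fragile. Taking in 1 more Y1 cell, with 6 collagen UMIs, lowered the calls between EY and N from 8 to 0, and leaving out Y1 raised them to 87. They were also 0 in the 91 cells without UMIs of Epcam, Cdh1, Tyrobp, Cd3e, Pecam1 or Cdh5. That choice also leaves 1 cell in EY1 and 11 in N2, so the loss of calls cannot be laid to the removed transcripts alone. The EY group rested on 9 cells and Y1, E2 and EY1 on 2 each. The contrasts share libraries, so they are not independent of one another. Fold changes below are between EY and N unless another contrast is named.

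Interferon-stimulated genes were the list with the widest gap between EY and N. Summed over the list, members held 19643 and 15840 CPM in N, 20362 and 18754 in E, 4946 and 24470 in Y, and 2853 and 4055 in EY. Both EY libraries and Y1 thus lay at 4946 CPM or less and the other 5 libraries at 15840 or more. The summed level of the immediate early and dissociation stress list was highest in the same 3 libraries. It was at 44013 CPM in EY1, 39832 in EY2 and 36079 in Y1 against 20672 to 33856 in the others. The stress list did not move as a whole. Both EY libraries were above all others for Hspb1, Hsp90aa1 and the metallothioneins Mt1 and Mt2. They were below all others for Atf3, Zfp36, Klf6 and Ier3. Mt1 weighed heavily in the sum of EY2, with a median of 22268 CPM in its single cells against 1194 in Y1. The part of the stress list in the interferon result was not tested. Of the 30 interferon-stimulated genes tested, out of 41 listed, both EY libraries lay below both N libraries for 29, against 24.4% of all genes tested. They lay above for none, against 19.2%. Counts of genes without overlap are a description here and carry no test. The median log2 difference between EY and N was -3.02 over the list and -0.04 over all genes; with the 9 genes at 0 in EY set to the bound that 3 counts allow, it was -2.03. None of the 30 was called by edgeR. At an unadjusted p under 0.05, 19 of them were lower, against 196 of all 3120 genes. For 9 of the 30, both EY libraries were below all 6 others, against 8.85% of all genes. The count against N was 28 to 30 under each choice of members and without each of the EY and N libraries in turn.

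Class I antigen presentation showed the pattern at high counts. B2m, the light chain shared by class I molecules, was at 3051 and 3114 CPM in N, 3056 and 4615 in E, 364 and 3655 in Y, and 654 and 528 in EY (log2 fold change -2.44, SE 0.78, adjusted p = 0.295, edgeR). The class I heavy chain H2-K1 was at 3246 and 2789 CPM in N, 3765 and 2376 in E, 312 and 3440 in Y, and 238 and 681 in EY (log2 fold change -2.72, SE 0.84, adjusted p = 0.288, edgeR). The EY libraries and Y1 were the lowest 3 for both genes, and the differences did not pass the adjusted test. Reads of H2-K1 and its close paralogs, such as H2-D1, may be shared by the aligner, so their separate levels are uncertain. H2-D1 was at 3054 and 3814 CPM in N, 5411 and 5911 in E, 1093 and 6158 in Y, and 1308 and 1414 in EY.

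The stretches of 200 bases before the start sites of B2m and H2-K1 are shown because these 2 genes carried the largest class I differences between EY and N in log2 terms, and that of Col3a1 as the most abundant gene of the members. They come from RefSeq on GRCm38.p6, at chr2:122147487-122147686 on the plus strand, chr17:34000348-34000547 on the minus strand (the first of 2 listed start sites) and chr1:45311338-45311537 on the plus strand. Capitals mark 3 motifs searched on both strands in all 32851 promoter windows of the same length. These were GGG and CCC with any 5 bases between, which reads the same on both strands and resembles NF-kB sites (10.6% of windows), GAAA and GAAA with any 2 bases between, which resembles interferon response elements (2.27%), and TGACG, the core of cyclic AMP response elements (15.7%). The motifs do not overlap one another here.
B2m: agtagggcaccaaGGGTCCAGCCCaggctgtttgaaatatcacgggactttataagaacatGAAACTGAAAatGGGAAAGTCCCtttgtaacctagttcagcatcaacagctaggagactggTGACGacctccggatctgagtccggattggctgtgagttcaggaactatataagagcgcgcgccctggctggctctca
H2-K1: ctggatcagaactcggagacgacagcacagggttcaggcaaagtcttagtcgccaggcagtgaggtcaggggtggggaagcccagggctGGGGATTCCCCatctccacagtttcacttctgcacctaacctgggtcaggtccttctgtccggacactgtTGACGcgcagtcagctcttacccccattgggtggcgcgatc
Col3a1: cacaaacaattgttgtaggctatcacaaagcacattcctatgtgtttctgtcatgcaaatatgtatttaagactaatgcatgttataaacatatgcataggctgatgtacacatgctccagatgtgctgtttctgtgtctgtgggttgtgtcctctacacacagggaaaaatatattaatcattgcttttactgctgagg
The B2m window held all 3 motifs, with the interferon-like motif starting 139 bases before the start site, the NF-kB-like motif 127 and 187 bases before it and TGACG 78 bases before it. H2-K1 held the NF-kB-like motif and TGACG, 111 and 41 bases before the start, and Col3a1 held none. These are matches of letters and not measured binding sites.

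The same UMIs split by cell gave the same order. This is no separate evidence, since cells of a library are not replicates. B2m was between 0 and 1363 CPM in the 9 EY cells, with a median of 529, and between 233 and 5775 in the other 90, with a median of 3208. Of those 90 cells, 8 were at or below the highest EY cell, 2 of them the 2 cells of Y1. H2-K1 ran from 170.4 to 1432 CPM in EY cells, with a median of 696, and had a median of 3289 in the others.

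**Figure D3:**
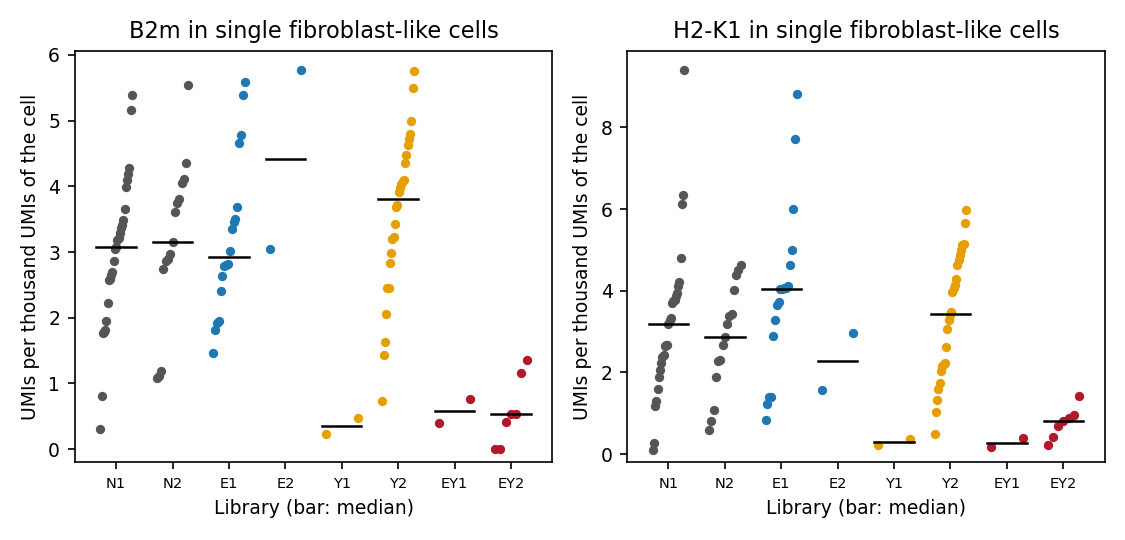
B2m (left) and H2-K1 (right) in each fibroblast-like cell, as UMIs per 1000 UMIs of that cell, by library; the bar is the median of the library. The 9 EY cells and the 2 Y1 cells lie at the low end of both panels.

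Chemokines and other genes known to follow interferon gamma were lower in both EY libraries than in both N libraries, and some were at 0. Cxcl9, which attracts activated T cells, was at 1594 and 524 CPM in N, 638 and 216 in E, 0 and 1233 in Y, and 0 and 0 in EY. It had 692 UMIs in N and 0 in EY, at least 32.1-fold lower against the floor of 3 counts over the EY group (edgeR adjusted p = 0.138). The peptide transporter Tap1 had 83 UMIs in N and 0 in EY, at least 3.85-fold lower. The immunity-related GTPase Iigp1 was at 2007 and 524 CPM in N, 684 and 1041 in E, 52.1 and 468 in Y, and 29.7 and 289.6 in EY, and the ubiquitin-like Isg15 at 211 and 117 CPM in N, 547 and 393 in E, 0 and 513 in Y, and 0 and 17 in EY. Again both EY libraries and Y1 held the lowest levels of Iigp1, and the same 3 held the lowest of Isg15, at 17.0 CPM or less.

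Class II antigen presentation followed, and it included a called gene. H2-Ab1, a class II chain, was at 416 and 278 CPM in N, 535 and 334 in E, 52.1 and 153 in Y, and 0 and 0 in EY. It was called lower in EY (229 UMIs against 0, at least 10.6-fold, edgeR adjusted p = 0.0451). The class II invariant chain Cd74 was at 1112 and 673 CPM in N, 1128 and 137 in E, 0 and 318 in Y, and 29.7 and 0 in EY and did not pass (edgeR adjusted p = 0.138). Immune cells held H2-Ab1 at 2918 to 7075 CPM in the other groups and 1359 to 1812 in EY, so immune cells differed in the same direction, and the part of RNA from them was not tested.

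Epithelial cells of the same libraries did not show this order. Over the interferon list, epithelial cells summed to 2973 and 2370 CPM in N, 8828 and 10356 in E, 3704 and 4768 in Y, and 7624 and 5775 in EY. Both EY libraries were thus above both N libraries in the epithelium and below them in the fibroblast-like cells. Immune cells summed to 10468 and 11206 CPM in N, 24253 and 23083 in E, 12513 and 12787 in Y, and 11664 and 8252 in EY, with EY close to N on both sides and E highest. B2m was at 365 to 570.2 CPM in epithelial cells of N and 574 to 915 in EY, and at 2183 to 2407 and 1119 to 1706 in immune cells. The difference between classes of cells was not tested.

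**Figure D4:**
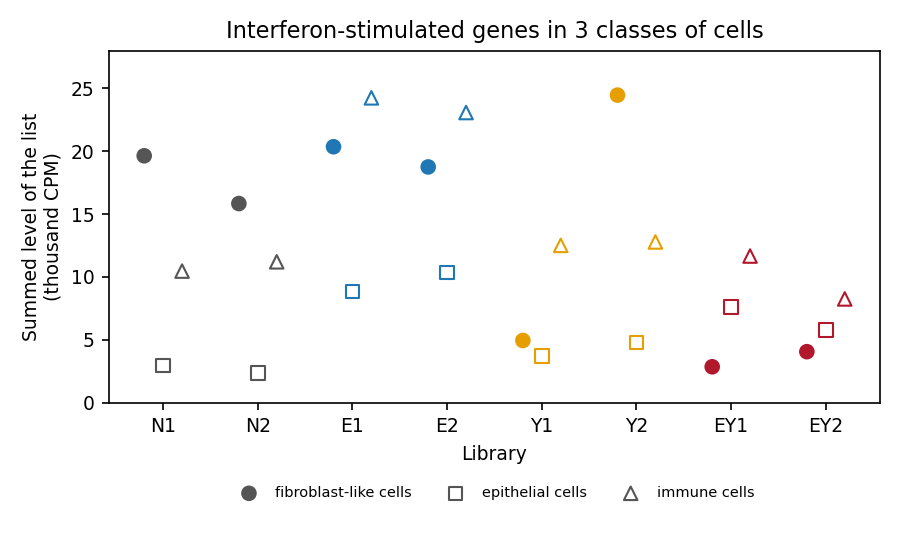
Summed level of the interferon-stimulated list, in units of 1000 CPM, for fibroblast-like cells (filled circles), epithelial cells (squares) and immune cells (triangles) of each library. Fibroblast-like cells summed to 2853 to 4946 CPM in Y1, EY1 and EY2 and to 15840 to 24470 in the other 5 libraries.

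Genes of progenitor and adventitial fibroblasts, the cells that surround vessels, were also low in EY. Of 15 genes tested, 13 were below both N libraries in both EY libraries and none above. Over all genes tested, 24.4% were below and 19.2% above. The median log2 difference over the list was -1.43. None of the 15 was called by edgeR. At an unadjusted p under 0.05, 6 of them were lower, against 196 of all 3120 genes. For 8 of the 15 both EY libraries were below all others, against 8.85% of all genes. Pi16 was at 1084 and 1724 CPM in N, 871 and 844 in E, 2082 and 908 in Y, and 29.7 and 681 in EY. The stem cell antigen Ly6a was at 2327 and 2350 CPM in N, 2666 and 2278 in E, 1510 and 3726 in Y, and 654 and 1704 in EY. Fn1 was at 2053 and 3269 CPM in N, 2231 and 3064 in E, 3853 and 3096 in Y, and 1100 and 954 in EY. EY1 held the lowest level of Pi16 and Ly6a, and both EY libraries the lowest of Fn1. The count was 7 of 15 when cells over the upper limits on genes and UMIs were let in, a choice that adds 1 cell to EY1 and 19 to N2.

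Contractile genes lay on the other side. Of 14 genes tested, 9 were higher in both EY libraries than in both N libraries and none lower. Over all genes tested, 19.2% were higher and 24.4% lower. The median log2 difference over the list was 0.94. None of the 14 was called by edgeR. At an unadjusted p under 0.05, 5 of them were higher, against 100 of all 3120 genes. For 8 of the 14 both EY libraries were above all others, against 7.66% of all genes. Tropomyosin 1 (Tpm1), an actin-binding protein, was at 193 and 243 CPM in N, 464 and 137 in E, 312 and 336 in Y, and 1010 and 749.6 in EY (log2 fold change 1.96, SE 0.57, adjusted p = 0.272, edgeR). Acta2 was at 183 and 143 CPM in N, 431 and 0 in E, 0 and 37.1 in Y, and 1189 and 477 in EY. Both were highest in EY1 and next highest in EY2. In EY1, 1 of the 2 cells held all 40 Acta2 UMIs. In EY2, 1 of the 7 cells held 25 Acta2 UMIs, and others held 2 and 1. Tagln stood at 1932 CPM in EY1 and 34.1 in EY2, so EY1 carried it. With no upper limits on genes and UMIs the count was 4 of 14.

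Within the matrix, collagens and proteoglycans leaned to opposite sides of N, with exceptions in each list. Of 15 fibril collagens and partners, 10 were higher in both EY libraries than in N (6 without the upper limits) and 4 lower. Col14a1 and Col15a1 were lower in both EY libraries than in all others. Of 31 proteoglycans and glycoproteins, 18 were lower (12 without the upper limits) and 4 higher, with a median log2 difference of -0.91. Over all genes tested, 24.4% were lower and 19.2% higher. Of the collagens 2 were called, Col12a1 and Col7a1. Lum was at 1494 and 1343 CPM in N, 1551 and 2612 in E, 2395 and 820.4 in Y, and 297 and 409 in EY (log2 fold change -2.03, SE 0.55, adjusted p = 0.22, edgeR). Aspn, a proteoglycan of the same family, was at 1622 and 1171 CPM in N, 1177 and 609 in E, 833 and 1980 in Y, and 594 and 119 in EY (log2 fold change -2.08, SE 0.73, adjusted p = 0.342, edgeR). The basement membrane chain Col4a2 was at 229.9 and 138 CPM in N, 203 and 118 in E, 312 and 449.9 in Y, and 684 and 1073 in EY (log2 fold change 2.22, SE 0.53, adjusted p = 0.138, edgeR). Lum and Aspn were lowest in the EY libraries and Col4a2 highest there, and the 3 genes did not pass the adjusted test. The genes of the rule, which the choice of cells touches, were lower for Col3a1 in EY (5082 and 5980 CPM) and Y1 (2499) than elsewhere (12405 to 18912).

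Several other lists also held more genes below N than the background of 24.4%. Of 30 inflammatory cytokines and chemokines, 14 were lower in both EY libraries than in N and 4 higher, and 19 were lower with no upper limits on genes and UMIs. Ccl2, which attracts monocytes, was at 1668 and 483 CPM in N, 228 and 19.6 in E, 0 and 431 in Y, and 0 and 119 in EY (log2 fold change -3.96, SE 1.22, adjusted p = 0.288, edgeR). Cxcl1, which attracts neutrophils, was at 2147 and 1329 CPM in N, 896 and 295 in E, 52.1 and 500.2 in Y, and 446 and 733 in EY. Both had their highest level in N1, and EY lay below N. Cxcl12, which retains leukocytes and progenitors, was at 988 and 556 CPM in N, 1041 and 2042 in E, 156 and 648 in Y, and 1010 and 273 in EY, and EY and N overlapped. Cxcl13 was at 8054 CPM in EY1 and 1041 in Y1, libraries of 2 members each, and at 165 or less in the other 6.

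Complement and acute phase genes split. Of 15 tested, 8 were lower in EY than in N (53.3%, and 7 with no upper limits) and 2 higher (13.3%). Over all genes tested, 24.4% were lower and 19.2% higher. C3, the central complement protein, was at 4651 and 4200 CPM in N, 3433 and 8464 in E, 1718 and 2781 in Y, and 2348 and 1857 in EY (log2 fold change -1.12, SE 0.50, adjusted p = 0.501, edgeR). Serping1, the inhibitor of the first complement component, was at 2464 and 1750 CPM in N, 2023 and 3299 in E, 1614 and 2355 in Y, and 2110 and 1618 in EY, with EY1 between the N libraries. The 2 higher genes were Hp and the protease inhibitor Serpina3n, which was at 373 and 126 CPM in N, 282 and 157 in E, 0 and 625 in Y, and 1843 and 1670 in EY (log2 fold change 2.77, SE 0.86, adjusted p = 0.288, edgeR). Serpina3n was below 1 CPM in pooled immune cells, unlike Hp.

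Among 17 matrix proteases and inhibitors, 9 were lower in EY (52.9%, and 5 with no upper limits) and 4 higher. Timp2, an inhibitor of metalloproteinases, was at 1584 and 1771 CPM in N, 1567 and 2573 in E, 1249 and 2107 in Y, and 654 and 562 in EY (log2 fold change -1.52, SE 0.50, adjusted p = 0.312, edgeR). Timp1, of the same family, was at 258 and 138 CPM in N, 452 and 157 in E, 52.1 and 193 in Y, and 892 and 699 in EY (log2 fold change 1.95, SE 0.61, adjusted p = 0.288, edgeR). The paralogs thus lay on opposite sides of N in EY, and neither passed. Mmp2, which cuts gelatin and basement membrane collagen, was at 746 and 981 CPM in N, 808 and 1060 in E, 573 and 969 in Y, and 624 and 937 in EY, with no separation. Of 18 genes of collagen processing and crosslinking, 4 were lower and 2 higher (22.2% and 11.1%, against 24.4% and 19.2% of all genes). The crosslinking enzyme Lox was at 90.1 and 240.0 CPM in N, 141 and 118 in E, 52.1 and 249 in Y, and 981 and 341 in EY (log2 fold change 1.90, SE 0.67, adjusted p = 0.342, edgeR).

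Of 19 genes of Wnt, BMP and TGF-beta signals, 9 were lower in EY (47.4%, 8 with no upper limits) and 3 higher (15.8%). Over all genes tested, 24.4% were lower and 19.2% higher. The secreted Wnt antagonist Sfrp2 was at 311 and 173 CPM in N, 498 and 491 in E, 0 and 201 in Y, and 0 and 34.1 in EY (log2 fold change -3.51, SE 1.04, adjusted p = 0.281, edgeR). Id3, a target of BMP signals, was at 544 and 673 CPM in N, 510.0 and 609 in E, 260.3 and 511 in Y, and 178 and 119 in EY (log2 fold change -2.11, SE 0.59, adjusted p = 0.239, edgeR). Both were lower in EY than in every N and E library, and neither passed. Of 20 identity factors, 5 were lower, 4 higher and Crabp1 was called. Ebf1, a transcription factor of mesenchymal cells, was at 482 and 430.3 CPM in N, 315 and 353 in E, 625 and 625 in Y, and 119 and 85.2 in EY (log2 fold change -2.24, SE 0.55, adjusted p = 0.148, edgeR), and Barx1, a homeobox factor of oral and foregut mesenchyme, at 174 and 79 CPM in N, 174 and 118 in E, 52.1 and 71.5 in Y, and 0 and 17 in EY. Prrx1, a factor of limb and craniofacial mesenchyme, was at 522 and 861 CPM in N, 415 and 353 in E, 312 and 368 in Y, and 505 and 767 in EY and overlapped.

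Of 16 growth factors and receptors, 4 were lower and 2 higher (25.0% and 12.5%), with Igfbp5 called. Over all genes tested, 24.4% were lower and 19.2% higher. Igf1, the insulin-like growth factor, was at 1575 and 743 CPM in N, 912 and 1218 in E, 885 and 669.6 in Y, and 832 and 835 in EY, and Pdgfra at 202 and 337 CPM in N, 199 and 412 in E, 469 and 236 in Y, and 238 and 256 in EY; EY and N overlapped for both. Among 26 genes of the immediate early and dissociation response, 7 were lower (11 with no upper limits) and 4 higher, and Fos was at 4374 and 2669 CPM in N, 2492 and 5086 in E, 8017 and 2130 in Y, and 4814 and 1448 in EY. Fos differed more between the libraries of Y, and of EY, than between group means. Hypoxia and glycolysis genes gave 3 lower and 3 higher of 15, and lipid and detoxification genes 4 lower and 2 higher of 13. YAP targets and Hippo genes gave 4 lower and 2 higher of 13 (30.8% and 15.4%). Of the proliferation list only 1 gene was tested, which overlapped.

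**Figure D5:**
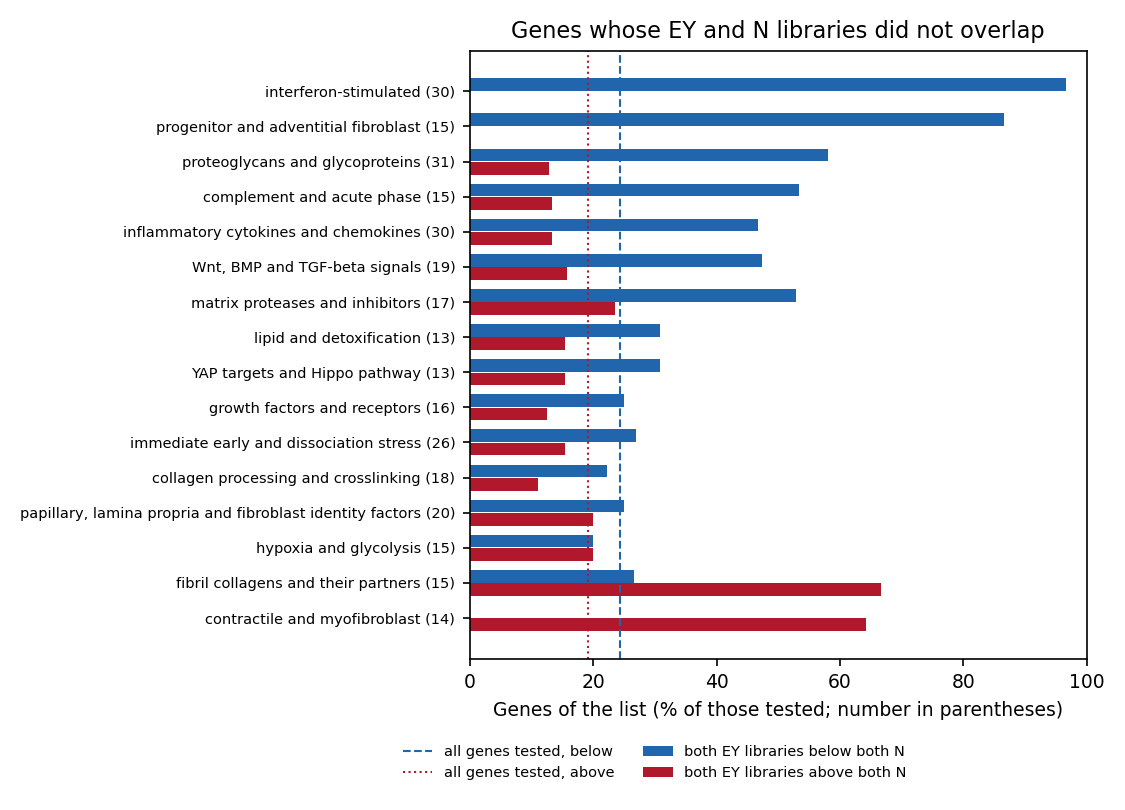
For each gene list with at least 10 genes tested, the percent of its genes for which both EY libraries lay below both N libraries (blue) or above them (red); dashed and dotted lines give the same over all 3120 genes, 24.4% and 19.2%. Interferon-stimulated genes reach 29 of 30 below, and contractile genes 9 of 14 above.

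Of the 8 genes called between EY and N, 4 met the limits set for named genes: a mean of 50 CPM or more in an arm, no overlap between the arms, and a pooled level in the members of at least 1/5 of that in epithelial and in immune cells. Col12a1, a collagen that sits on fibril surfaces, was at 80.8 and 102 CPM in N, 133 and 19.6 in E, 0 and 124 in Y, and 1932 and 1005 in EY (log2 fold change 3.93, SE 0.73, adjusted p = 0.0451, edgeR). It had UMIs in 4 of the 9 EY cells and 33 of the other 90. No cell outside EY exceeded 1058 CPM and the highest in EY reached 2810. In EY, 3 cells held nearly all of its UMIs, with 65 in 1 cell of EY1 and 39 and 19 in cells of EY2. Col7a1, the anchoring fibril collagen, was at 0 and 0 CPM in N, 124 and 0 in E, 0 and 2.65 in Y, and 59.4 and 358 in EY, with UMIs in 6 cells in all (EY at least 55.1-fold higher than N, edgeR adjusted p = 0.0451). Crabp1, a retinoic acid binding protein, was at 6.21 and 2.93 CPM in N, 203 and 0 in E, 0 and 0 in Y, and 89.2 and 767 in EY and had UMIs in 9 cells (log2 fold change 6.42, SE 1.14, adjusted p = 0.0451, edgeR). All Col7a1 and Crabp1 UMIs of EY lay in the same 3 cells as those of Col12a1, and these 3 had no UMI of Cd34 or Pi16. The 3 also included the EY cells with 40 and 25 Acta2 UMIs. Epithelial cells held Crabp1 at 138 CPM and Col7a1 at 24.5 CPM, so both are also transcripts of the epithelium. Igfbp5, a binding protein of insulin-like growth factors that also led cluster 3, was at 1960 and 2985 CPM in N, 813 and 1237 in E, 1666 and 1186 in Y, and 178 and 426 in EY and was the other gene called lower (log2 fold change -3.03, SE 0.55, adjusted p = 0.0451, edgeR). These 4 genes kept their direction under every alternative run and each lost the call under some, among them a minimum of 5 collagen UMIs and no upper limits on genes and UMIs. On GRCm38 Col12a1 lies at chr9:79598991-79718831, Col7a1 at chr9:108953586-108984875, Crabp1 at chr9:54764748-54773110 and Igfbp5 at chr1:72857932-72874884, each as a whole gene.

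The remaining 3 called genes, all higher in EY, were abundant in other cells of the same libraries. S100a8, a neutrophil protein, was at 267 and 289.6 CPM in EY members and at 60788 to 68456 CPM in EY immune cells, against 37.4 to 10085 in immune cells of the other groups. The protease inhibitor Slpi was at 3.11 and 0 CPM in N, 261 and 0 in E, 0 and 7.94 in Y, and 1605 and 170.4 in EY, and in EY immune cells at 1575 and 3827. The syndecan Sdc1 was at 12.4 and 17.6 CPM in N, 95.4 and 0 in E, 0 and 18.5 in Y, and 178 and 358 in EY, with 161 to 236 CPM in epithelial cells of every library. Slpi, S100a8 and Sdc1, like Col7a1 and Crabp1, were at 17.6 CPM or less in both N libraries. They passed the filter on low counts only through libraries with E6-E7, so their direction was largely fixed by the filter. None of the 8 genes was called in the 91 cells without UMIs of Epcam, Cdh1, Tyrobp, Cd3e, Pecam1 or Cdh5. That choice leaves 1 cell in EY1.

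Other large differences between EY and N did not pass the test. Mmp3, which degrades proteoglycans and other matrix, was at 211 and 296 CPM in N, 556 and 118 in E, 0 and 849.5 in Y, and 6598 and 2181 in EY (log2 fold change 4.06, SE 1.02, adjusted p = 0.161, edgeR). It was found in 8 of 9 EY cells and 38 of the other 90, but 1 cell of EY1 held all 222 Mmp3 UMIs of that library. In EY2, single cells held 90 and 26 Mmp3 UMIs and the rest 6 or fewer. The highest single cell was in Y at 10284 CPM. The acute phase protein haptoglobin (Hp) was at 805 and 787 CPM in N, 498 and 0 in E, 0 and 416 in Y, and 6389 and 5418 in EY (log2 fold change 2.84, edgeR adjusted p = 0.342). Saa3, another acute phase protein, was at 693 and 3363 CPM in N, 651 and 19.6 in E, 0 and 629.9 in Y, and 18812 and 3544 in EY. The metallothionein Mt1, which binds zinc, was at 2892 and 4832 CPM in N, 1028 and 4890 in E, 1197 and 3253 in Y, and 9688 and 17701 in EY (log2 fold change 1.77, SE 0.69, adjusted p = 0.393, edgeR). For all 4 genes both EY libraries were above the other 6, though for Saa3 EY2 was close to N2. The EY1 cell with the Mmp3 UMIs also held all 215 Hp UMIs and 532 of the 633 Saa3 UMIs of EY1. Immune cells also held more Hp and Saa3 in EY (Hp at 1071 to 1547 CPM against 76.3 to 200.4), and Mmp3 was below 1 CPM in immune cells of each library.

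For E6-E7, over the 4 libraries with it and the 4 without, the fit called Col7a1, Crabp1, Slpi and Inhba, all higher. These 4 genes were at 11.7 CPM or less in every N and Y library. They passed the filter on low counts only through libraries with E6-E7, so their direction was largely fixed by the filter. Inhba, a subunit of activin, was at 6.21 and 11.7 CPM in N, 170.0 and 0 in E, 0 and 7.94 in Y, and 208 and 256 in EY (log2 fold change 4.07, SE 0.66, adjusted p = 0.0404, edgeR). E2, which carries E6-E7, was at 0 for all 4, so the libraries of the 2 arms overlapped; E1, EY1 and EY2 held the signal, and within them a few cells did. In E1, 1 cell held 35 of 41 Inhba UMIs and 42 of 49 Crabp1 UMIs, and another held 27 of 30 Col7a1 UMIs. In EY2, 1 cell held 43 of 45 Crabp1 UMIs. Inhba had UMIs in 9 cells of E and EY and in 6 of N and Y. Immune cells held Inhba at 707 and 385 CPM in EY, 406 and 70.7 in Y and 10.7 to 24.5 in N and E, and the part of RNA from them was not tested. Among genes whose arms did not overlap, Pdgfrb, a growth factor receptor of fibroblasts and pericytes, was at 74.6 and 76.1 CPM in N, 203 and 196 in E, 104 and 109 in Y, and 149 and 221 in EY, which did not pass (log2 fold change 1.14, SE 0.31, adjusted p = 0.738, edgeR). Idh3g, Cux1, Rnf187 and Mrpl4 had positive differences and Ifi202b, Fam129a, Ifrd1, Ebf1 and Plpp3 negative ones, from -1.45 to 1.45 on the log2 scale, and none passed.

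For YAP1S127A no gene passed. The smallest p-values among genes whose arms did not overlap were those of Sfrp4, at 472 and 1022 CPM in N, 692 and 432 in E, 0 and 132 in Y, and 0 and 85.2 in EY (log2 fold change -3.09, SE 0.60, adjusted p = 0.605, edgeR), and of Col4a2 and Col4a1, the chains of type IV collagen (log2 fold change 1.69 and 1.89, edgeR adjusted p = 0.694 for each). Col4a1 was at 472 and 176 CPM in N, 344 and 196 in E, 1302 and 643 in Y, and 802 and 2198 in EY. Lipa, Tsc22d3 and Twist2 had positive differences and Igtp, Ildr2, C3 and Ptgis negative ones, and none passed. Of 13 YAP targets and Hippo pathway genes tested, none was called, and their median log2 difference was 0.09 against -0.03 over all genes. The YAP target Ccn1 was at 332 and 623 CPM in N, 369 and 1316 in E, 0 and 413 in Y, and 416 and 392 in EY, with no order by transgene.

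The interaction compares the effect of YAP1S127A in mice with E6-E7 and in mice without it, and no gene was called. Cxcl5, a neutrophil attractant, had the smallest p. It was at 500.2 and 342 CPM in N, 120.2 and 0 in E, 0 and 50.3 in Y, and 654 and 613 in EY (log2 fold change 6.12, SE 1.10, adjusted p = 0.213, edgeR). It was thus high in N and EY and low in E and Y. Lcn2, an iron-binding protein of neutrophils, had the next smallest (log2 fold change 10.37, edgeR adjusted p = 0.213) but fell outside the naming limits, with 32.5 CPM pooled in members and 1548 in immune cells, and is named after its value was seen. Within the limits Acsl4, Fst, Saa3 and Hp had the smallest p among other positive values, and Phf11d, Eif2ak2, Smarca2, Clec3b and Sri with negative ones. For Cxcl5 and Saa3 the sign turned when cells over the upper limits were let in.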

How the data were processed

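The authors loaded sorted viable cells on a 10x Genomics 3' chip and aligned the reads to mm10 with Cell Ranger (5.0.0 in the matrix headers), and the deposited values are raw UMI counts per gene and cell. The labels and the study's methods name different kit versions. Cells were filtered here by the study's limits, with no doublet caller. The members, gene lists and tests were chosen with earlier results of these data known.

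Counts of the members were summed per library (19208 to 377856 UMIs) and fitted with edgeR 4.0.16 (TMM, quasi-likelihood, R 4.3.3; limma 3.58.1 loaded), with DESeq2 1.42.0 as an alternative. The design called for libraries with at least 20 members; only N1 and Y2 had them, so the fit over all 8 libraries, its alternatives, the fit on libraries with at least 5 members and the epithelial class at 0.5% keratin (at 5% only 108 cells remained, and none in EY2) were chosen after seeing the data. Genes were named if called, if 1 arm averaged 50 CPM or more, and if there was no overlap between arms and at least 1/5 of the CPM of epithelial and immune cells; the 5 smallest p under these limits were added in each direction where fewer than 5 were called. Examples within lists were chosen after their values were seen.

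Shares were compared by exact permutation over libraries (SciPy 1.17.1; the smallest p that 70 labellings allow is 0.0286), with exact Clopper-Pearson 95% intervals. Clusters were made with scanpy 1.11.5 (2000 variable genes without those of the rule, 15 components, 15 neighbours, Leiden resolution 0.5). On simulated counts for EY against N the fit recovered 37% of changes of 2 and 77% of changes of 4 on the log2 scale (2897 genes, 7 false calls). The simulation gave every gene the same spread (dispersion 0.124). It thus cannot show how the fit does on genes carried by single cells, as many are here. Promoter windows came from RefSeq (GRCm38.p6) and gene positions from GENCODE on GRCm38.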

Additional observations from a re-analysis of the deposited data

Results flagged for a closer look

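Among the 4 libraries with YAP1S127A, the share of fibroblast-like cells was 1.14% in Y2 (1.13686% before rounding), and the gap to the next library took 0.829316 of the range of the 4, just above the 95% critical value of Dixon's test. Chance puts about 1 in 20 groups over that value, and 4 groups were looked at. Y2 was also the sole library whose members held Xist. The cause was not tested.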

How the results depend on the processing

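The numbers of genes called by edgeR depended on the choice of cells and libraries. Between EY and N the 8 calls became 0 with at least 5 collagen UMIs and with no upper limits on genes and UMIs. They were also 0 in the 91 cells without UMIs of Epcam, Cdh1, Tyrobp, Cd3e, Pecam1 or Cdh5, which leave 1 cell in EY1. The 8 calls became 68 with no filter on low counts, 5 with DESeq2 and 187 with libraries of at least 5 members. For E6-E7 the 4 calls became 0 with at least 5 collagen UMIs or no upper limits, 47 with no filter and 12 with libraries of at least 5 members. For YAP1S127A the 0 calls became 39 with no filter, 1 with DESeq2 and 2 with libraries of at least 5 members, and for the interaction 25, 1 and 103. Leaving out 1 library at a time gave 0 to 87 calls between EY and N, 0 to 18 for E6-E7, 0 to 18 for YAP1S127A and 0 to 41 for the interaction. Without EY1 there were 8 and without EY2 6 between EY and N, without N1, E1 or Y2 0, without N2 2, without E2 36 and without Y1 87; a lone library was then assumed to vary like the others. The cause was not tested. With no upper limits the sign turned for Cxcl5, interaction -1.40, and for Saa3, interaction -2.15. The same choice lowered the counts of genes without overlap to 7 for the progenitor list, 4 for the contractile list and 6 for the fibril collagens. Over the 12 calls of single genes, 97 values under alternatives lost the call, 143 kept it and 0 turned. The difference in share with YAP1S127A ran from -0.362 to 0.00505 percentage points without 1 library at a time and was -0.406 with no upper limits. With E6-E7 it ran from -0.654 to -0.288 and was -1.09 with cells without Ptprc as the denominator. In all, 0 of 34 alternative share tests had an adjusted p under 0.05.

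The planned fits on libraries with at least 20 members, and their alternatives, were not run, since only N1 and Y2 had that many. No paired analysis was possible because the replicate numbers only name the libraries and pair no animals. Depth limits every value: 1 UMI is worth 52.1 CPM in Y1 and 29.7 in EY1, and 3 counts over the EY members are 32.5 CPM.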
